A study of Mus musculus with 4 samples.

Results

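The genes described are 10 members of the Wnt pathway in mouse articular cartilage, chosen by name as ligands (Wnt5a, Wnt5b), secreted antagonists (Frzb, Sfrp1, Sfrp2, Sfrp5, Dkk3, Wif1) and target genes (Axin2, Lef1). They are 10 of the 24532 genes in the deposited expression table, and each was found there on 1 row by its symbol. Gene expression was measured by RNA sequencing in 4 libraries, from sham and injured cartilage of young and of adult mice. All mice were wild type C57BL/6, and the study's methods name males. Young mice were 3 weeks old, whereas adult mice were 10 weeks old in the study's methods and 12 or 14 weeks old in 2 fields of the sample labels. The injured samples are from day 3 after a full-thickness cartilage injury (FTCI) of the patellar groove in the methods, whereas the labels name surgery by DMM, the destabilization of the medial meniscus. The sham cartilage carries a sham surgery label and is called uninjured in the methods, and the label of adult sham cartilage spans days 3 to 14. RNA of 10 injured mice or 5 sham mice was pooled for each library. With 1 library per group, no difference given here has a replicate check, and no standard deviation or p-value can be had.

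Wnt proteins are secreted signals that bind Frizzled receptors and the co-receptors LRP5 and LRP6 at the cell surface. In the canonical branch this stabilizes beta-catenin, which enters the nucleus and activates target genes together with DNA-binding factors of the TCF/LEF family, while non-canonical branches act without beta-catenin. Secreted Frizzled-related proteins (Sfrp1, Sfrp2, Sfrp5 and Frzb, also called sFRP3) and Wnt inhibitory factor 1 (Wif1) bind Wnt proteins outside the cell, and articular chondrocytes are known as a rich source of Frzb and Wif1. In cartilage, too much and too little beta-catenin signalling are both known to harm the tissue.

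Values are FPKM, fragment numbers corrected for the length of each transcript and the size of the library. This correction does not remove general shifts between libraries. Changes are log2 ratios of FPKM + 1, and 2-fold or more (a log2 ratio of 1 or more in size) was the threshold. Adding 1 FPKM makes the change of a low gene look smaller than it was, so some changes of low genes are also given as plain ratios of FPKM. All 10 genes were above 0 in all 4 libraries, 9 reached 1 FPKM in at least 1 library, 8 had a mean of 1 FPKM or more, and 7 reached 1 FPKM in all 4 libraries. General shifts between libraries also matter here. Over the 10891 genes that reached 1 FPKM everywhere, the median log2 ratio after injury was −0.04 at the young and 0.23 at the adult age, that of adult to young sham cartilage was −0.30, and that of young to adult injured cartilage was 0.07. These medians became −0.02, −0.00, 0.02 and −0.01 under median-of-ratios scaling, in which the values of a library are divided by a single factor taken from the typical gene, and for the 10 genes scaled values are given where a direction or a call depends on it. The 12 chondrocyte markers examined were at or above 1 FPKM in every library. Col2a1, the main collagen of cartilage, was at 9349 FPKM in sham and 7903 in injured cartilage of young mice, against 3173 and 3750 in that of adult mice, where its log2 ratio of 0.24 became −0.04 after scaling.

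The genes lie on 9 chromosomes of the mouse assembly GRCm38.p6. Frzb spans chr2:80411970-80447396, Sfrp1 chr8:23411383-23449632, Sfrp2 chr3:83765750-83774314, Sfrp5 chr19:42197971-42202252 and Dkk3 chr7:112116019-112159482. Wif1 spans chr10:121034004-121100642, Wnt5a chr14:28504543-28527448, Wnt5b chr6:119432531-119544824, Axin2 chr11:108917828-108950783 and Lef1 chr3:131110297-131224357. Promoter sequence from RefSeq was matched for 7 of the 10 genes, in 12 windows of the 250 bases before an annotated start. TCF/LEF factors, of which Lef1 is one, bind DNA at a short motif, and CTTTG followed by 2 letters that were each A or T, 7 letters in all, was searched on both strands. Of all 32851 promoter windows of that length, 14.84% held at least 1 of them, against 2 of the 12 windows of these genes (16.67%). The 4 sequences below are shown because the first pair holds a match and the second pair belongs to the antagonists with the highest level (Wif1) and with the largest injury change in adult cartilage (Sfrp5). They read 5′ to 3′ on the strand of the gene, in lower case, and capitals mark the match. The first is the window before an internal start of Lef1, chr3:131156044-131156293 on the plus strand, with the match beginning 147 bases before the start. The second is the window before 1 of 3 starts of Wnt5b, chr6:119449387-119449636 on the minus strand, with the match 71 bases before the start. The third is the part of the Wif1 window outside annotated exons, chr10:121033754-121033959 on the plus strand, and the fourth is the Sfrp5 window, chr19:42202253-42202502 on the minus strand.
Lef1: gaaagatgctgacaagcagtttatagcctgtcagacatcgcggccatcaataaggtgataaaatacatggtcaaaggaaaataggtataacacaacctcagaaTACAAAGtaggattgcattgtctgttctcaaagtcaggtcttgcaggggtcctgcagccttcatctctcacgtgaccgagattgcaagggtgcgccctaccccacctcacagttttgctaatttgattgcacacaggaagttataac
Wnt5b: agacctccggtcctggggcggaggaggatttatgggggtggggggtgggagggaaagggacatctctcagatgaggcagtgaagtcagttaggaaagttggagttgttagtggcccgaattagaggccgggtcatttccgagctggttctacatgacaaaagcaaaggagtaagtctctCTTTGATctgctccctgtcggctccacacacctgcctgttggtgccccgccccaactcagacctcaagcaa
Wif1: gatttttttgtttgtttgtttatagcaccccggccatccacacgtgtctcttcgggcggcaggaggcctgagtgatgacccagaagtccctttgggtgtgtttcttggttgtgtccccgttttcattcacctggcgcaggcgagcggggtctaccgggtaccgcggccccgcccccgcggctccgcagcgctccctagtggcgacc
Sfrp5: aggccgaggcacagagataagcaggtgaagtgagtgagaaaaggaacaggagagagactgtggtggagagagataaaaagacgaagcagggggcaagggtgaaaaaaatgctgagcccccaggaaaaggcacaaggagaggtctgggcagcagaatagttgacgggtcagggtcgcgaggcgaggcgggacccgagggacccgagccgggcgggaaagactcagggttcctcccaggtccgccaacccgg
Neither the third nor the fourth window holds these letters, and the same was true of the windows of Frzb, Sfrp2 and Axin2. A match is a description of the sequence only, and which start the cartilage used was not analysed here.

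Wif1 and Frzb held by far the most RNA among these genes, followed by the antagonists Sfrp5 and Dkk3, while the other antagonists were as low as the ligand Wnt5b. Wif1 had the highest mean level, 644 FPKM over the 4 libraries, followed by Frzb at 405, Sfrp5 at 50.1 and Dkk3 at 17.6. Wnt5b (4.32 FPKM), Sfrp1 (4.19), Sfrp2 (3.15) and Axin2 (2.26) formed a low group, and Lef1 (0.990) and Wnt5a (0.526) were below 1 FPKM on average. Wif1 ranked 123rd of all genes in young sham and 56th in adult sham cartilage, while Wnt5a ranked no higher than 13021st in any library. The order within the low group changed from library to library, and with no replicates its neighbours cannot be told apart.

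**Figure D1:**
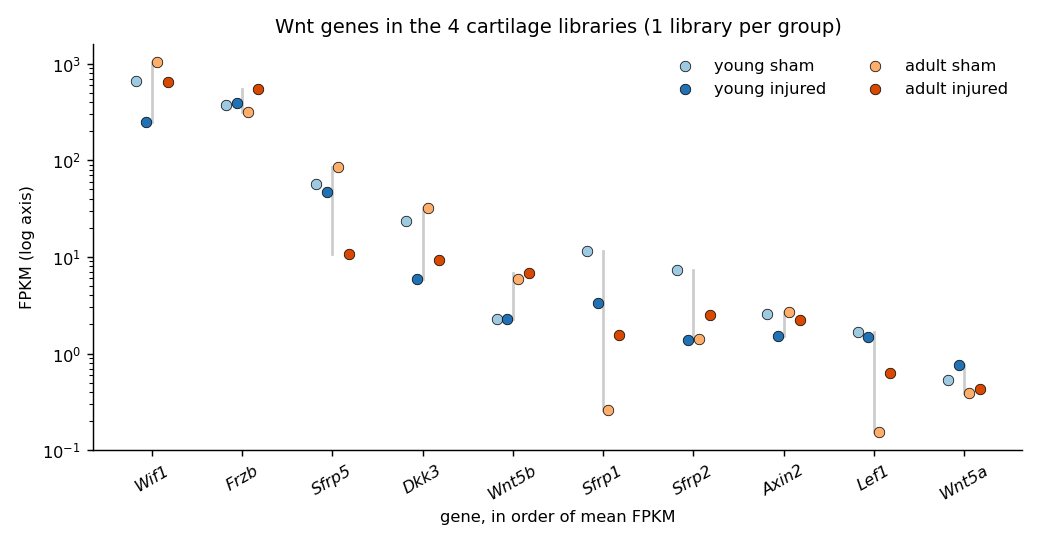
FPKM on a log axis for the 10 Wnt genes, with 1 point per library from left to right for sham and injured, young and then adult, and a grey line from the lowest to the highest library. Wif1 and Frzb stood above 200 FPKM in every library, Sfrp1 spread 44.9-fold and Lef1 10.9-fold between their lowest and highest libraries, and Frzb spread 1.74-fold.

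Both ligands were low and moved little after injury. Wnt5a, a ligand known mainly for non-canonical signalling, measured 0.532 FPKM in the sham and 0.757 in the injured library of young mice, and 0.387 and 0.430 in those of adult mice. Injury gave it log2 ratios of 0.20 (young) and 0.04 (adult), the latter −0.04 after median-of-ratios scaling. All 4 values lay below 1 FPKM. Wnt5b, a related non-canonical ligand known from the growth plate, measured 2.28 FPKM in sham and 2.30 in injured young cartilage, and 5.96 and 6.74 in the adult pair. Both adult libraries therefore lay above both young ones, and the log2 ratio of adult to young sham cartilage was 1.08 (1.40 after scaling). Injury gave Wnt5b log2 ratios of 0.01 (young) and 0.15 (adult), and the adult one was −0.09 after scaling. Wnt5b was 4.29 times as abundant as Wnt5a in young sham and 15.4 times in adult sham cartilage.

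Among the antagonists, Wif1 and Dkk3 were lower in the injured library at both ages. Wif1 measured 652.9 FPKM in sham and 247.9 in injured cartilage of young mice, against 1026 and 649.2 in that of adult mice. The injured library was the lower one at each age, and the adult injured level was about that of young sham cartilage. Wif1 was 2.63-fold lower after injury in young mice (log2 ratio −1.39), past the threshold, and 1.58-fold lower in adult mice (log2 ratio −0.66, or −0.94 after scaling), short of it. Dkk3, a Dickkopf relative whose action on Wnt signalling depends on the cell type, measured 23.3 FPKM in the sham and 5.93 in the injured library of young mice, and 31.9 and 9.38 in those of adult mice. Both sham libraries exceeded both injured ones. Its decrease was 3.93-fold in young and 3.41-fold in adult mice, with log2 ratios of −1.81 and −1.67 (−1.93 in adult mice after scaling), which differ by 0.14 and in an order that turned with the scaling (difference young minus adult −0.14 as deposited and 0.16 after scaling). Of 4 markers of the superficial zone, the surface layer of the cartilage, 4 were lower in the young and 3 in the adult injured library than in its sham, and Gdf5 was the exception (3.41 FPKM in sham and 6.98 in injured cartilage). Of all genes tested, 49.9% were lower in the young and 27.6% in the adult injured library, or 43.3% in the latter after scaling. The 4 superficial zone markers summed to 2230 FPKM in the sham and 513 in the injured library of young mice, and 5688 and 3478 in those of adult mice. Prg4, which encodes lubricin, led the sum at 2049, 421.3, 3565 and 2658 FPKM in the same order. The part of this layer in the change of Wif1 and Dkk3 was not tested, and in bulk cartilage fewer cells of a type and less RNA per cell cannot be told apart.

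Frzb did not share these decreases. It measured 374.5 FPKM in sham and 388.1 in injured young cartilage, and 312.8 and 545.4 in the adult pair. The adult injured library was the highest and the other 3 lay close together. The log2 ratio after injury was 0.05 in young mice, where it was −0.06 in TPM and −0.11 after quantile normalization, and 0.80 in adult mice, or 0.52 after median-of-ratios scaling, and neither reached 2-fold. Adult against young sham cartilage gave −0.26 for Frzb as deposited and 0.13 after scaling.

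Sfrp5 showed the largest injury change of the 10 genes, in adult cartilage. It measured 57.1 FPKM in sham and 46.5 in injured cartilage of young mice, against 85.9 and 10.7 in that of adult mice. The adult injured library stood far below the other 3. Its log2 ratio was −2.89 in adult mice, 8.0-fold lower after injury, and −0.29 in young mice, 1.23-fold lower. The difference between the ages (young minus adult) was 2.60 on the log2 scale, above that of 99.89% of the 18181 genes tested. In injured cartilage Sfrp5 was 4.34-fold higher in young than in adult mice (log2 ratio 2.02). The 5 skeletal muscle markers moved alongside Sfrp5, with a summed level of 433 FPKM in the sham and 430 in the injured library of young mice, and 1061 and 298 in those of adult mice. All 5 had a negative injury log2 ratio in adult mice, as did 27.6% of all genes tested, and 4 of them were past 2-fold, against 1.46% of all genes. None was at 0, and their part in the result was not tested.

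Sfrp1 and Sfrp2 ran in opposite directions at the 2 ages. Sfrp1 measured 11.6 FPKM in sham and 3.34 in injured young cartilage, and 0.259 and 1.54 in the adult pair. Young sham cartilage was the highest and adult sham cartilage the lowest. Sfrp1 was 3.48-fold lower after injury in young mice (log2 ratio −1.54), while in adult mice its log2 ratio of FPKM + 1 was 1.01, just past the threshold, and 0.94 after scaling, below it. The plain ratio of FPKM in adult mice was 5.94, on a base of 0.259 FPKM. Between the shams Sfrp1 was 44.9-fold lower in the adult library (log2 ratio −3.33 of FPKM + 1), the largest difference of the 10 genes. Sfrp2 measured 7.33 FPKM in sham and 1.38 in injured cartilage of young mice, against 1.40 and 2.50 in that of adult mice. Young sham cartilage stood above the other 3 libraries. Sfrp2 was 5.30-fold lower after injury in young mice (log2 ratio −1.80) and 1.78-fold higher in adult mice (log2 ratio 0.54, or 0.37 after scaling, below the threshold), and 5.22-fold lower in adult than in young sham cartilage (log2 ratio −1.79). The difference between the ages in the injury log2 ratio (young minus adult) was −2.55 for Sfrp1 and −2.35 for Sfrp2. Among the 12 chondrocyte markers, 9 were lower in the young and 3 in the adult injured library, or 5 in the latter after scaling. The shares of all genes were 49.9% and 27.6%, or 43.3% in the latter after scaling. Of the 12, 11 were lower in adult than in young sham cartilage, against 65.6% of all genes, or 50.2% after scaling. Their part in the result was not tested.

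Of the 9 fibroblast and synovium markers, 6 had a positive injury log2 ratio in young mice and 3 a negative one, namely Fap (−0.75), Dpt (−0.64) and Pdgfrb (−0.09), where Sfrp1 and Sfrp2 were lower and 49.9% of all genes tested had a negative ratio. The markers' summed level, in which Lum, Col3a1 and Col1a1 weighed most, was 1342 FPKM in the sham and 3086 in the injured library of young mice, and 833 and 2645 in those of adult mice. The sum was higher in both injured libraries and lower in adult than in young sham cartilage, but the signs of the markers differed. Between the shams 5 of the 9 had a negative log2 ratio and 4 a positive one. Of all genes tested, 65.6% had a negative ratio there, or 50.2% after scaling. For adult injury 7 of the 9 had a positive ratio and 2 a negative one, against 27.6% of all genes negative, or 43.3% after scaling. None of the markers was at 0, and their part in the result was not tested. Depth limits the lowest of these values. The lowest FPKM values lie on faint regular steps, and on the assumption that each step is 1 fragment the depth was about 27400000 fragments in either young library, 32600000 in the adult sham and 27000000 in the adult injured library. Sfrp1 would then rest on about 1391 and 400 fragments in young and on 37 and 182 in adult cartilage. The steps were too faint to give back whole fragments, and counting errors cannot be given.

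The target genes were low, and neither passed 2-fold after injury as a ratio of FPKM + 1. Axin2, a scaffold of the beta-catenin destruction complex that canonical signalling induces as negative feedback, measured 2.58 FPKM in sham and 1.53 in injured young cartilage, and 2.70 and 2.25 in the adult pair. It was lower in the injured library at both ages, with log2 ratios of −0.50 (young) and −0.19 (adult, or −0.39 after scaling). Lef1, a TCF/LEF factor that is also a target of the pathway, measured 1.68 FPKM in sham and 1.49 in injured cartilage of young mice, against 0.155 and 0.628 in that of adult mice. Both young libraries exceeded both adult ones, and Lef1 was 10.9-fold lower in adult than in young sham cartilage (log2 ratio −1.22 of FPKM + 1). Its injury log2 ratio was −0.11 (young) and 0.50 (adult), and in adult mice the plain ratio was 4.06 on the low adult sham value (log2 ratio 1.52 with 0.1 FPKM added).

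Counted over the 10 genes, 0 were at least 2-fold higher and 4 at least 2-fold lower after injury in young cartilage, namely Dkk3, Sfrp2, Sfrp1 and Wif1. With 5 FPKM added in place of 1, Sfrp1 (log2 ratio −0.995) and Sfrp2 (−0.95) fell short. Among all 18181 genes tested, 4.57% were higher and 1.27% lower in that comparison, and 8.07% of the 12418 genes with a mean of 1 FPKM or more passed either way. In adult cartilage 1 gene was higher (Sfrp1, or 0 after scaling and with 5 FPKM added, at a log2 ratio of 0.31) and 2 were lower (Sfrp5 and Dkk3), against 6.90% higher and 1.46% lower among all genes and 11.7% either way among those with a mean of 1 FPKM or more. Scaling brought the split of all calls in adult cartilage from 1255 higher and 266 lower to 866 and 455. The median log2 ratio of the 10 genes was −0.40 in young mice, against 0.00 over all genes tested, and 0.10 in adult mice (−0.06 after scaling), against 0.14.

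Between the sham libraries 1 of the 10 genes was at least 2-fold higher in the adult (Wnt5b) and 3 were lower (Sfrp1, Sfrp2 and Lef1). With 5 FPKM added, Sfrp1 alone stayed past the threshold, and Sfrp2 (log2 ratio −0.94), Lef1 (−0.37) and Wnt5b (0.59) did not. After scaling 2 were higher, Wif1 being the other with a log2 ratio of 1.04, and the same 3 genes were lower. Of all genes tested, 2.66% were higher and 10.6% lower in adult sham cartilage, and 18.7% passed either way at a mean of 1 FPKM or more. Scaling moved the split of all calls from 484 higher and 1934 lower to 972 and 1009. The median over the 10 genes was −0.05 as deposited and 0.23 after scaling, against −0.15 over all genes tested as deposited. In injured cartilage 1 gene was higher in young mice (Sfrp5) and 2 were lower (Wif1, with a log2 ratio of −1.39, and Wnt5b, with −1.23, or −0.69 with 5 FPKM added). Lef1 (log2 ratio 0.61) and Sfrp1 (0.77) were short of the threshold there, although their plain ratios were 2.38 and 2.17. Among all genes the shares in that comparison were 3.09% higher, 1.80% lower and 6.78% either way at a mean of 1 FPKM or more. The split of all calls there was 561 higher and 328 lower as deposited, and 619 and 625 in TPM. The injury log2 ratio differed by 1 or more between the ages for 3 of the 10 genes (Sfrp1, Sfrp2 and Sfrp5), as it did for 6.25% of all genes. Lef1 was a further one in TPM (young minus adult −1.06) and with 0.1 FPKM added (−1.68). Over all genes such differences also became more frequent in these settings. As deposited 299 lay above and 837 below 0, against 317 and 1986 in TPM and 962 and 2276 with 0.1 FPKM added. The comparisons share libraries, in that each sham library enters its injury comparison and the comparison of the ages, so these counts are not independent of each other.

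**Figure D2:**
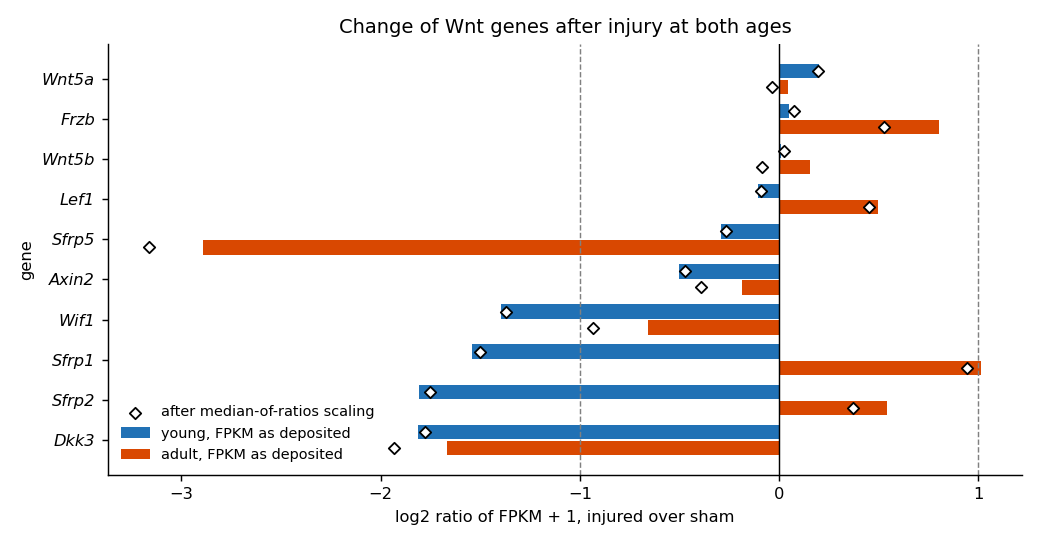
Log2 ratio of FPKM + 1, injured over sham, for each Wnt gene in young mice (blue bars) and adult mice (orange bars), with diamonds for the ratio after median-of-ratios scaling and dashed lines at 2-fold. Dkk3 and Wif1 lay below 0 at both ages, Sfrp5 was far lower in adult mice (−2.89) than in young mice (−0.29), and Sfrp1 and Sfrp2 were below 0 in young and above 0 in adult mice.

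Ratios of genes within a library do not change when all its values are divided by a single factor, as in TPM and median-of-ratios scaling. Quantile normalization can change them. Wif1 was 1.74 times as abundant as Frzb in young sham cartilage and 0.639 times in young injured cartilage, a 2.73-fold decrease of the ratio. In adult cartilage the ratio went from 3.28 in sham to 1.19 in injured cartilage, a 2.76-fold decrease. Wif1 was thus the more abundant of the pair in all libraries except young injured cartilage. The ratio of Dkk3 to Frzb decreased 4.07-fold in young mice, from 0.0622 to 0.0153, and 5.94-fold in adult mice, from 0.102 to 0.0172. The ratio of Sfrp5 to Frzb decreased 1.27-fold in young mice, from 0.152 to 0.12, and 14.0-fold in adult mice, from 0.275 to 0.0197. The ratio of Sfrp1 to Frzb decreased 3.61-fold in young mice and increased 3.41-fold in adult mice. These ratios show unequal change of the 2 genes in a pair, not which of them changed.

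**Figure D3:**
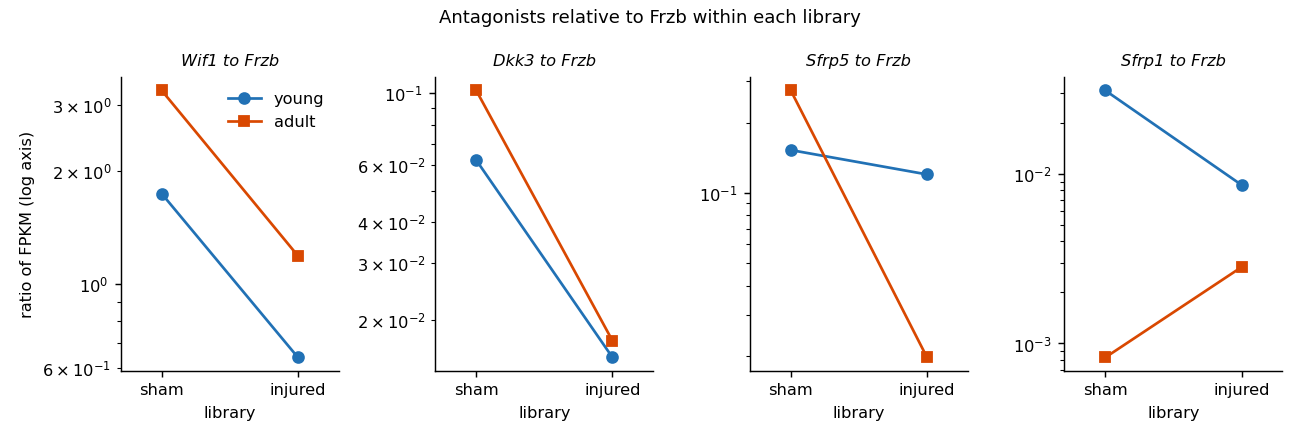
Ratio of the FPKM of Wif1, Dkk3, Sfrp5 and Sfrp1 to that of Frzb in the same library, on log axes that differ between panels, for sham and injured cartilage of young (blue circles) and adult mice (orange squares), with 1 library per point. The lines for Wif1 run in parallel (2.73-fold and 2.76-fold lower), those for Sfrp5 differ in slope (1.27-fold and 14.0-fold lower), and those for Sfrp1 run in opposite directions.

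Beyond the 6 antagonists described so far, 8 other secreted antagonists of the pathway were examined, and the sum of all 14 was dominated by Frzb and Wif1. The summed level was 1139 FPKM in the sham and 704.3 in the injured library of young mice, and 1526 and 1267 in those of adult mice. Frzb and Wif1 together made up 90.2%, 90.3%, 87.8% and 94.3% of the sum in the same order. Within it, the share of Frzb was 32.9% in young sham and 55.1% in young injured cartilage, against 20.5% and 43.0% in adult mice. The share of Wif1 was 57.3% and 35.2% in young, and 67.3% and 51.2% in adult mice. The share of Frzb was therefore higher and that of Wif1 lower in the injured library at both ages. The share of Sfrp5 was 5.01% in sham and 6.60% in injured young cartilage, and 5.63% and 0.847% in the adult pair.

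**Figure D4:**
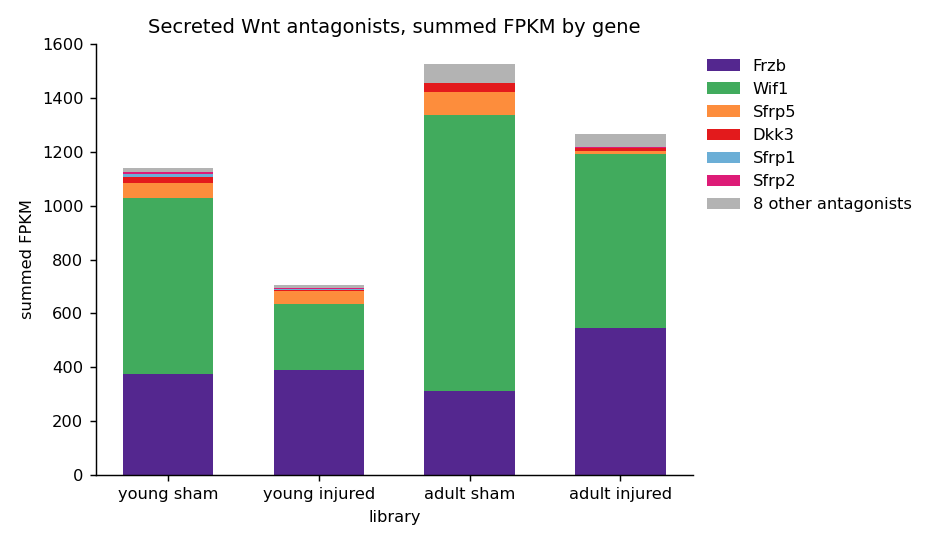
Summed FPKM of 14 secreted Wnt antagonists in each library, with 1 colour per gene and the 8 antagonists that are not among the 10 genes in grey. The sum was lowest in young injured cartilage (704.3 FPKM) and highest in adult sham cartilage (1526 FPKM), and Frzb and Wif1 filled most of every bar.

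Of the 14 antagonists, 13 were above 0 in at least 1 library and 1 (Dkk4) was listed at 0 throughout. Injury left 1 at least 2-fold higher and 5 lower in young cartilage, and 1 higher (0 after scaling) and 4 lower in adult cartilage, against 4.57% and 1.27% of all genes in young and 6.90% and 1.46% in adult mice. In adult against young sham cartilage 3 were higher, or 4 after scaling, and 2 lower, against 2.66% and 10.6% of all genes. The list holds the 6 antagonists already counted. Notum, an enzyme that removes the lipid from Wnt proteins and is itself a target of the pathway, measured 7.92 FPKM in sham and 1.52 in injured young cartilage, and 6.44 and 2.57 in the adult pair. Like Dkk3 it was lower in both injured libraries, with log2 ratios of −1.82 (young) and −1.06 (adult). Sost, the osteocyte antagonist sclerostin, measured 0.459 FPKM in sham and 0.0915 in injured cartilage of young mice, against 26.0 and 8.67 in that of adult mice. Dkk1, which blocks LRP5 and LRP6, measured 2.24, 1.33, 24.1 and 21.4 FPKM in the same order. Both were therefore far higher in the adult libraries, where the summed level of 6 osteoblast markers was also higher, 255 FPKM in the sham and 327 in the injured library of young mice, and 1440 and 1343 in those of adult mice, with none of them at 0. Whether bone RNA has a part in this was not tested. Sfrp4 measured 1.28, 7.54, 10.5 and 15.0 FPKM, with injury log2 ratios of 1.90 (young) and 0.47 (adult), opposite in sign to Wif1 and Dkk3 at both ages.

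Of 19 Wnt ligands, 14 were above 0 in at least 1 library and 14 (5 of them at 0 throughout) stayed below 1 FPKM in all libraries. The summed level of the ligands was 10.1 FPKM in sham and 7.98 in injured young cartilage, and 17.1 and 14.4 in the adult pair, so that the antagonist sum was 113, 88.2, 89.3 and 87.8 times the ligand sum in the same order. Wnt5b made up 22.7%, 28.8%, 34.9% and 46.7% of the ligand sum. After injury 0 ligands were at least 2-fold higher and 1 was lower at each age, and that 1 was Wnt9a, a ligand known from joint formation. The shares of all genes were 4.57% higher and 1.27% lower in young and 6.90% and 1.46% in adult mice, but the 14 ligands below 1 FPKM throughout could not pass 2-fold as a ratio of FPKM + 1. Wnt9a measured 5.03 FPKM in sham and 0.374 in injured cartilage of young mice, against 4.85 and 0.749 in that of adult mice. It was the most abundant ligand in young sham cartilage and below 1 FPKM in both injured libraries, with log2 ratios of −2.13 and −1.74. Wnt4 measured 0.758, 1.22, 0.805 and 2.31 FPKM and Wnt11 0.865, 1.34, 2.70 and 2.33 FPKM in the order sham and injured, first in young and then in adult mice, and neither passed 2-fold after injury as a ratio of FPKM + 1. The 2 genes for Wnt secretion, Wls and Porcn, stayed within 2-fold in all 4 comparisons as deposited, whereas after scaling Porcn was past it between the shams (log2 ratio 1.09). Wls, which carries Wnt proteins to the cell surface, was at 46.8 to 62.7 FPKM.

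R-spondins enhance Wnt signalling through LGR receptors, and the 2 of them that reached 1 FPKM in any library differed with age in opposite directions. Rspo3 measured 8.53 FPKM in the sham and 6.90 in the injured library of young mice, and 0.439 and 0.909 in those of adult mice, and Rspo2 measured 0.255, 0.385, 2.61 and 2.38 FPKM in the same order. The log2 ratio of adult to young sham cartilage was −2.73 for Rspo3 and 1.53 for Rspo2. Of the 9 genes on the list of R-spondins and their receptors, 2 were higher and 1 lower between the shams, against 2.66% and 10.6% of all genes. Of the same 9, 0 passed 2-fold after injury in young mice and 1 in adult mice, the receptor Lgr6, which was at 28.7 FPKM in sham and 13.7 in injured adult cartilage (log2 ratio −1.02). The shares of all genes past 2-fold were 4.57% higher and 1.27% lower for young injury, and 6.90% and 1.46% for adult injury. Znrf3, a ligase that removes Frizzled receptors, measured 2.68 FPKM in sham and 1.31 in injured young cartilage, and 1.72 and 1.57 in the adult pair, and passed 2-fold in none of the 4 comparisons as a ratio of FPKM + 1.

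Of 18 receptors and co-receptors, 17 had a negative log2 ratio after injury in young mice (median −0.31) and 4 in adult mice (median 0.16), or 8 after scaling (median 0.02). Over all genes tested, 49.9% were negative in young mice (median 0.00) and 27.6% in adult mice (median 0.14), or 43.3% after scaling. None of the 18 passed 2-fold in young mice, where 4.57% of all genes were higher and 1.27% lower. In adult mice Fzd4 was higher, 1.36 FPKM in sham and 4.21 in injured cartilage (log2 ratio 1.14, or 0.97 and short of 2-fold after scaling), and Fzd8 lower, 23.8 and 11.0 FPKM (log2 ratio −1.04), against 6.90% and 1.46% of all genes. Fzd9 had the highest level of the Frizzled receptors, at 51.8 FPKM in sham and 32.7 in injured young cartilage, and 78.2 and 78.8 in the adult pair. Lrp5, whose protein is a co-receptor for Wnt and the binding site of Dkk1 and sclerostin, measured 16.9, 8.09, 19.5 and 11.7 FPKM, with log2 ratios of −0.98 (young) and −0.70 (adult).

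The 17 canonical targets and feedback genes, which include Axin2 and Lef1, were split. In young mice 1 was at least 2-fold higher and 2 lower after injury (median −0.17), in adult mice 1 was higher and 1 lower, or 2 lower after scaling (median 0.02, or −0.02 after scaling), and in adult against young sham cartilage 2 were higher and 2 lower, or 3 and 1 after scaling. Among all genes the shares higher and lower were 4.57% and 1.27% for young injury, 6.90% and 1.46% for adult injury, and 2.66% and 10.6% between the shams. The one that was higher in young mice was Ccnd1, which encodes cyclin D1, at 3.07 FPKM in sham and 8.66 in injured cartilage (log2 ratio 1.25), named after its value was seen. Notum, given above, was the one gene of the list past 2-fold after injury at both ages as deposited, and after scaling Nkd1, a feedback inhibitor in the cytoplasm, was past it at both ages too (log2 ratios of −1.23 and −1.10, against −1.28 and −0.90 as deposited). Tnfrsf11b, which encodes the decoy receptor osteoprotegerin, had the highest level of the list and measured 111.9 FPKM in sham and 66.9 in injured cartilage of young mice, against 346.7 and 210.4 in that of adult mice. Its injury log2 ratios were −0.73 and −0.72, close to each other and below 2-fold. Myc, a growth regulator, measured 5.57, 6.25, 1.82 and 6.71 FPKM and was past 2-fold after injury in adult mice (log2 ratio 1.45).

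The last lists hold genes that act inside the cell and genes of planar polarity. Beside their counts after injury stand 4.57% of all genes higher and 1.27% lower in young mice, and 6.90% and 1.46% in adult mice. Of 15 genes of the cytoplasmic beta-catenin pathway, 0 passed 2-fold after injury at either age, and 3 (Tnks, Csnk1a1 and Dvl3) were lower in adult than in young sham cartilage with log2 ratios of −1.44, −1.16 and −1.12, of which Tnks alone stayed past 2-fold after scaling (−1.18). Tnks2 stayed short of the threshold there at −0.99. Of 13 nuclear factors, 0 passed 2-fold after injury in young mice and 1 in adult mice, Pygo2, a partner of beta-catenin, at 2.78 FPKM in sham and 12.9 in injured cartilage (log2 ratio 1.88). Adult against young sham cartilage gave 3 lower nuclear factors, Lef1, Pygo2 (log2 ratio −1.61) and Bcl9l (−1.11, or −0.76 after scaling), while Tcf7l2 (−0.66) and Pygo1 (−0.83) did not pass 2-fold as ratios of FPKM + 1. After scaling 2 nuclear factors were lower and 1 was higher between the shams, the co-repressor Tle2 (log2 ratio 1.12, or 0.75 as deposited). Of 10 genes of planar polarity, a non-canonical branch, 1 was lower after injury in young mice (Dact1, log2 ratio −1.004) and 1 higher in adult mice (Celsr2, log2 ratio 1.03), and both fell short of 2-fold after scaling (−0.97 and 0.96). Between the shams 3 of them were lower in the adult, Dact1 (log2 ratio −1.76), Prickle1 (−1.49) and Daam1 (−1.06), and Daam1 was short of 2-fold after scaling (−0.81). Of all genes 10.6% were at least 2-fold lower in that comparison, in which the general median was −0.30.

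**Figure D5:**
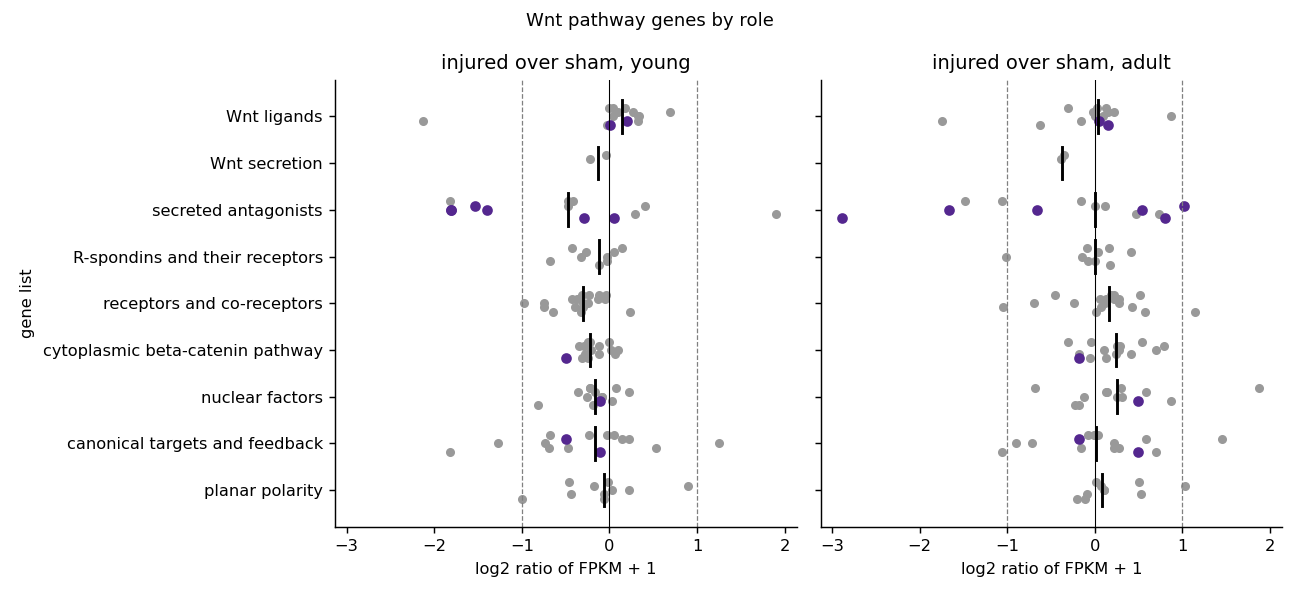
Log2 ratio of FPKM + 1, injured over sham, for the genes of 9 Wnt pathway lists above 0 in at least 1 library, in young (left) and adult mice (right), with a black bar at each list's median, purple points for the 10 Wnt genes described, grey points for the others and dashed lines at 2-fold. In young mice the secreted antagonists had the lowest median (−0.47) and 17 of 18 receptors lay below 0. That median was the value of a gene below 1 FPKM in all libraries, as were 3 of the 18 receptors.

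Markers of other cells also differed between the libraries. The 6 macrophage markers summed to 169 FPKM in sham and 1565 in injured young cartilage, and 243 and 1363 in the adult pair, with all 6 at least 2-fold higher at both ages, against 4.57% of all genes in young and 6.90% in adult mice, and the 5 endothelial markers summed to 14.4, 72.9, 16.5 and 60.6 FPKM. The 12 chondrocyte markers summed to 19032 FPKM in sham and 16710 in injured cartilage of young mice, against 12051 and 10980 in that of adult mice. The sum was lower after injury at both ages, but the signs of the markers differed. In young mice 3 were higher and 9 lower, and in adult mice 9 were higher and 3 lower, or 7 and 5 after scaling. Of all genes tested, 49.9% were lower in young and 27.6% in adult mice, or 43.3% in the latter after scaling. In adult mice 5 of the 12 chondrocyte markers were at least 2-fold higher after injury, or 3 after scaling, against 6.90% of all genes as deposited, while Comp, the most abundant there, was at 7203 FPKM in sham and 4611 in injured cartilage. The hypertrophic markers summed to 846, 1496, 4763 and 7351 FPKM and the erythroid markers to 9620, 18371, 6944 and 3026 FPKM in the order sham and injured, first in young and then in adult mice. After injury 3 of the 5 hypertrophic markers were higher and 2 lower in young mice, and 4 and 1 in adult mice, or 3 and 2 after scaling. All 5 erythroid markers were higher in the young and lower in the adult injured library. Between the shams 4 erythroid markers were lower in the adult, against 65.6% of all genes. Hbb-bs was higher there, at 105.7 FPKM in young and 2868 in adult sham cartilage. No marker on any of these lists was at 0 in any library.

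Little sequence is shared with other genes, and at most 1.28% of the 31-base words of any of the 10 genes occurred in the transcripts of another gene (Lef1). Exons of an annotated gene on the other strand overlap those of Sfrp2 (Gm26771), Wnt5a (Gm2670), Axin2 (Gm11670) and Lef1 (Gm43352). The libraries were strand-specific, but whether strand was used in counting is not given in the sources used here, so for these 4 genes reads from the partner cannot be told apart.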

How the data were processed

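Cartilage RNA was pooled per group, and poly-A selected, strand-specific libraries were sequenced from both ends. The authors deposited FPKM for 24532 genes in 4 columns, 1 per library, each matched to its sample by name. The submitters' processing notes name HISAT2 2.1.0, StringTie 1.3.4d, STAR, SAMtools and the build mm10, without their order. Depth is not stated in fragments.

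Log2 ratios of FPKM + 1 were calculated for 18181 genes (all that were above 0 anywhere), for injured against sham cartilage at each age and for age in sham and in injured cartilage. No test was possible with 1 library per group. A gene was called at 2-fold or more. The 10 genes and all lists were chosen with earlier results of these data known. From each of 9 pathway lists, up to 4 genes with the largest change in any of 4 comparisons and a mean of at least 1 FPKM were named, and from each of 9 marker lists the 2 with the highest mean, of which those a result turned on were printed. Dkk4, Nkd1, Tle2, Gdf5, Col1a1, Fap, Dpt and Pdgfrb were named after their values were seen. Positions and promoters are from RefSeq (GRCm38.p6), and shared sequence and exon overlap were read from a GRCm38 annotation. The ratio calculation was tested on simulated data. The alternatives were pseudocounts of 0.1 and 5 FPKM, thresholds of 1.5-fold and 3-fold, a minimum of 1 FPKM in 1 or more libraries, rescaling to TPM, quantile normalization and median-of-ratios scaling. Calculations used Python 3.11.15, numpy 2.4.6 and pandas 2.3.3, and plots matplotlib 3.10.9.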

Additional observations from a re-analysis of the deposited data

Results flagged for a closer look

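Sfrp1, Sfrp2 and Lef1 had injury log2 ratios of opposite sign at the 2 ages, below 0 in young and above 0 in adult mice. Of all genes tested, 49.9% were below 0 in young and 27.6% in adult mice, or 43.3% in the latter after scaling. The share of all genes with this pair of signs was not counted. The difference, young minus adult, was −2.55 for Sfrp1, −2.35 for Sfrp2 and −0.603 for Lef1. Each sign rests on 1 library per group, and the difference between the ages was not tested. After median-of-ratios scaling the differences were −2.44, −2.12 and −0.54, with the same signs. That of Lef1 was −1.68 with 0.1 FPKM added in place of 1 and −1.06 in TPM. For all 3 genes the adult sham library was lower than the young sham library (log2 ratios of −3.33, −1.79 and −1.22), and each sham library enters the injury ratio of its own age.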

How the results depend on the processing

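The 10 genes' log2 ratios were recomputed 295 times under 6 alternatives, and 279 of these values stayed within 1.5-fold of the value as reported. Of the 279, 45 come from the minimum of 1 FPKM in 1 or more libraries. That alternative only drops a gene and leaves the values of the others as they were, so these 45 could not move. Another 16 moved further, and 0 of the called ratios changed sign. The sign did change in 14 values, all of ratios no larger than 0.259 in size as reported (Frzb, Wnt5a, Wnt5b and the difference between the ages for Dkk3). With a pseudocount of 5 FPKM the number of genes past 2-fold was 2 for injury in young mice and 1 between the shams, and with 0.1 FPKM it was 5 for young against adult injured cartilage. Of all 18181 genes tested, 343 were higher and 79 lower with 5 FPKM for young injury, and 225 and 670 between the shams. With 0.1 FPKM 1503 were higher and 843 lower in young against adult injured cartilage. The genes that fell short with 5 FPKM were Sfrp1 (−0.995) and Sfrp2 (−0.95) for young injury, Sfrp1 (0.31) for adult injury, Sfrp2 (−0.94), Lef1 (−0.37) and Wnt5b (0.59) between the shams, and Wnt5b (−0.69) between the injured libraries. Those gained with 0.1 FPKM were Lef1 (1.13) and Sfrp1 (1.07) between the injured libraries, and Lef1 for adult injury (1.52) and for the difference between the ages (−1.68, and −1.06 in TPM). With a threshold of 3-fold the number was 2, 2 and 1 for injury in young mice, the shams and the injured libraries. Among all genes 368 were higher and 49 lower, 183 and 505, and 188 and 96 in the same order. With a threshold of 1.5-fold it was 5 for injury in adult mice, 5 for the injured libraries and 6 for the difference between the ages. Among all genes 3262 were higher and 720 lower, 1779 and 1001, and 932 and 2921 in the same order. The pseudocount mattered most for Sfrp1, whose log2 ratio of adult to young sham cartilage was −5.03 with 0.1 FPKM and −1.66 with 5 FPKM. Leaving out a replicate was not possible with 1 library per group. No paired analysis was possible because each group has 1 library and no result comes from a test. The depth is known only through the steps of the lowest values, so that values near 1 FPKM and below are the least certain.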
